A study of Mus musculus with 6 samples.

Results

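Ptprc, Plek, Selplg, Coro1a, Laptm5, Cd53, Cd52, Rac2, Lcp1 and Fyb are 10 genes transcribed in nearly all white blood cells, and they were followed here in 6 liver tumors, out of 34745 genes listed. They were selected by name with their counts in these tumors already known to be mostly lower in tumors of Prmt3LKO mice. The contrast between the genotypes therefore chose them, and their values are given as a description with no test. Each tumor gave 1 library of total RNA, and there were 3 tumors of Prmt3f/f mice (replicates 7, 66 and 71, labelled WT) and 3 of Prmt3LKO mice (replicates 92, 93 and 94, labelled Prmt3-KO). Prmt3f/f mice carry floxed alleles of Prmt3 without Cre. In Prmt3LKO mice a Cre driven by the albumin promoter (Alb-Cre) deletes the floxed part in hepatocytes, so leukocytes keep an intact gene. All mice of both groups received 25 mg/kg of diethylnitrosamine (DEN), a liver carcinogen, at 2 weeks of age, and then 10% carbon tetrachloride (CCl4), a hepatotoxin, at 0.5 ml/kg from 6 weeks, and were killed at 26 weeks. Whole tumor tissue was sequenced, so each value sums all cells of the piece taken.

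The pan-leukocyte genes build the surface, the signaling machinery and the actin skeleton of blood-derived cells. The phosphatase CD45 sets the activity of Src-family kinases behind antigen and Fc receptors, PSGL-1 tethers rolling cells to selectins on the vessel wall, and Rac2, coronin and L-plastin drive the actin networks with which leukocytes crawl, engulf and form synapses. In a liver, Kupffer cells, recruited monocytes, lymphocytes and neutrophils all carry them, while hepatocytes carry little, so their summed level is commonly read as a measure of leukocyte content. In bulk RNA, fewer leukocytes and less RNA per leukocyte cannot be told apart.

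The libraries held between 18440244 and 27976598 counts. The level of Prmt3 was 6.601, 8.49 and 10.2 CPM (counts divided by the TMM-scaled size of the library) in Prmt3f/f tumors and 2.80, 2.03 and 3.82 in Prmt3LKO tumors, without overlap, so it followed the labels (log2 fold change -1.55 ± 0.29, SE, n = 3 per group). By the quasi-likelihood test in edgeR its adjusted p (Benjamini-Hochberg) was 0.592, whereas DESeq2 gave 0.0035, and an exact two-sided permutation test over tumors gave p = 0.1, the smallest that 3 against 3 allows. No gene of 13892 tested passed an adjusted p under 0.05 by edgeR with a fold of 2 or 0.5 in either direction, a share of 0% (smallest adjusted p 0.0879). At an unadjusted p under 0.05, 607 genes were lower in Prmt3LKO tumors (4.37%) and 305 were higher (2.2%). DESeq2 called 44 genes lower and 10 higher. Liver tissue was evident from Alb, the albumin gene of hepatocytes, at 108202 to 164722 CPM, and Prmt3f/f 7 stood apart in Spp1 (osteopontin, a product of cholangiocytes and macrophages), with 4075 CPM against 185 to 978 in the other tumors.

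Of the 10 pan-leukocyte genes, 8 had every Prmt3LKO tumor below every Prmt3f/f tumor. The exceptions were Coro1a and Lcp1. Of all genes tested, 6.6% had groups that did not overlap with Prmt3LKO lower and 5.56% with Prmt3LKO higher. Because this contrast chose the genes, the count is a description. All 10 passed the filter on low counts, with 112 to 2939 counts in any tumor. The log2 fold changes (Prmt3LKO over Prmt3f/f) ran from -1.07 for Plek to -0.0033 for Lcp1, with a median of -0.83 and an SD over the genes of 0.31. Over all genes tested the median was 0.00037 and the SD 0.43.

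**Figure D1:**
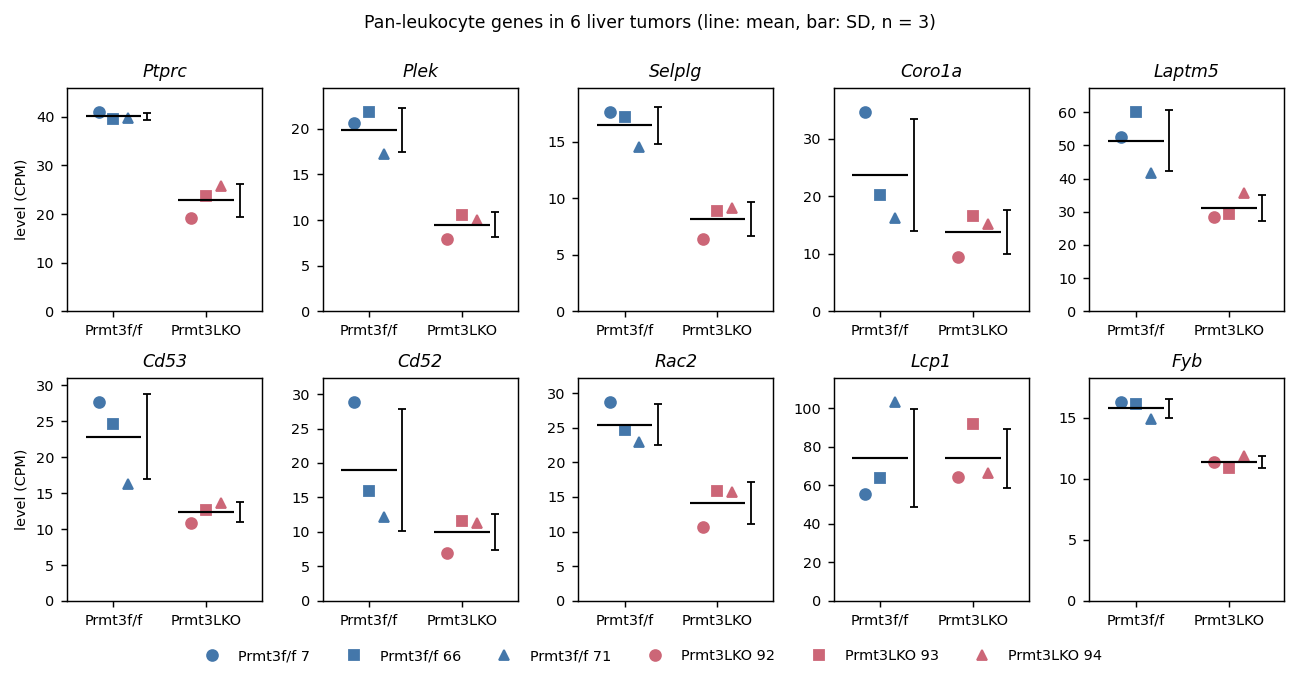
Level of each pan-leukocyte gene in CPM (linear axis from 0) in the 6 tumors, with the mean of each group as a line and the SD (n = 3) as a bar. For 8 genes all red points lie below all blue points, while in Coro1a and Lcp1 the groups overlap.

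Among the surface proteins, Ptprc (ENSMUSG00000026395, chr1:138062861-138175708, minus strand, GRCm38) encodes CD45, the receptor tyrosine phosphatase that defines leukocytes. Its level was 41.0, 39.6 and 39.7 CPM in the Prmt3f/f tumors and 19.1, 23.7 and 25.7 CPM in the Prmt3LKO tumors. The Prmt3f/f tumors were nearly identical, with a coefficient of variation of 1.96%, below the 3.26% that counting alone would give. The Prmt3LKO mean of 22.8 ± 3.38 CPM (SD, n = 3) was 56.9% of the Prmt3f/f mean of 40.1 ± 0.784 (log2 fold change -0.81 ± 0.15, SE). Selplg (ENSMUSG00000048163, chr5:113818536-113832644, minus strand) encodes PSGL-1, the ligand through which leukocytes roll on P-selectin. It stood at 17.6, 17.2 and 14.6 CPM in Prmt3f/f tumors and at 6.40, 8.84 and 9.15 CPM in Prmt3LKO tumors. The lowest control tumor was thus well above the highest Prmt3LKO tumor, and the Prmt3LKO mean was 49.4% of the control mean (log2 fold change -1.01 ± 0.19).

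Cd53 (ENSMUSG00000040747, chr3:106759921-106790149, minus strand), a tetraspanin that organizes receptors in the leukocyte membrane, was at 27.7, 24.6 and 16.3 CPM in Prmt3f/f tumors and at 10.8, 12.7 and 13.6 CPM in Prmt3LKO tumors. The groups did not overlap, but Prmt3f/f 71 lay nearer to the Prmt3LKO tumors than to the other controls (log2 fold change -0.88 ± 0.22). Cd52 (ENSMUSG00000000682, chr4:134082448-134095082, minus strand), a very short glycopeptide held by a lipid anchor and the target of the antibody alemtuzumab, was at 28.9, 15.96 and 12.1 CPM against 6.92, 11.6 and 11.4 CPM. Here a single control tumor, Prmt3f/f 7, carried much of the difference, and Prmt3f/f 71 exceeded the highest Prmt3LKO tumor only slightly. The log2 fold change of Cd52 was -0.93 ± 0.35 and moved to -0.50 without Prmt3f/f 7. Laptm5 (ENSMUSG00000028581, chr4:130913125-130936141, plus strand), a lysosomal membrane protein that sends antigen receptors to degradation, was at 52.6, 60.1 and 41.7 CPM against 28.6, 29.5 and 35.7 CPM. The groups were separate, and the Prmt3LKO mean was 60.7% of the control mean (log2 fold change -0.72 ± 0.18).

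Of the actin regulators, Rac2 (ENSMUSG00000033220, chr15:78559169-78572783, minus strand) is the small GTPase of blood cells that also switches on the NADPH oxidase. Its level was 28.8, 24.7 and 22.9 CPM in Prmt3f/f tumors and 10.6, 15.9 and 15.8 CPM in Prmt3LKO tumors. The groups were well separated, with the Prmt3LKO mean at 55.5% of the control mean (log2 fold change -0.85 ± 0.20). Coro1a (ENSMUSG00000030707, chr7:126699773-126707787, minus strand), which encodes coronin 1A, an actin-binding protein needed for T cell survival, was at 34.6, 20.2 and 16.2 CPM against 9.49, 16.6 and 15.2 CPM. Prmt3LKO 93 was above Prmt3f/f 71, so the groups overlapped. The log2 fold change of Coro1a was -0.78 ± 0.33 and moved to -0.41 without Prmt3f/f 7.

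Lcp1 (ENSMUSG00000021998, chr14:75131101-75230842, plus strand) encodes L-plastin, which bundles actin filaments in leukocytes and is also known to be made by many carcinoma cells. It was the exception among the 10 genes. Its level was 55.5, 63.7 and 103.3 CPM in Prmt3f/f tumors and 64.4, 91.6 and 66.1 CPM in Prmt3LKO tumors. The order of the control tumors was turned round: Prmt3f/f 7, the highest tumor of all 6 in 7 of the other genes, was the lowest in Lcp1, and Prmt3f/f 71 was the highest. The group means of 74.2 ± 25.6 and 74.0 ± 15.2 CPM were nearly equal (log2 fold change -0.0033 ± 0.26). Leaving out 1 tumor at a time moved this value between -0.18 and 0.31. Whether tumor cells contributed counts of Lcp1 was not tested.

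The cytoplasmic adaptors gave the largest difference and the smallest of the 9 genes other than Lcp1. Plek (ENSMUSG00000020120, chr11:16971206-17052381, minus strand) encodes pleckstrin, the main substrate of protein kinase C in platelets and leukocytes. It was at 20.6, 21.8 and 17.2 CPM in Prmt3f/f tumors and at 7.94, 10.6 and 9.95 CPM in Prmt3LKO tumors, and the Prmt3LKO mean was 47.7% of the control mean (log2 fold change -1.07 ± 0.18). Fyb (ENSMUSG00000022148, chr15:6579871-6663313, plus strand) encodes ADAP, the adaptor that couples the T cell receptor to integrins. Its level was 16.3, 16.1 and 14.9 CPM against 11.4, 10.9 and 11.9 CPM. Fyb was the tightest gene within the Prmt3LKO group, and the Prmt3LKO mean kept 72.0% of the control mean (log2 fold change -0.47 ± 0.14). The locus of Fyb shares 231 exon bases on the same strand with Gm7666, a transcribed processed pseudogene with 1398 to 2101 counts per tumor, so reads of Fyb may be divided between them.

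Other members overlap genes of the opposite strand, and the use of strand in counting is not given in the sources used here. Cd52 shares 172 exon bases with Aim1l, which had 190, 16 and 35 counts in Prmt3f/f tumors and 83, 445 and 44 in Prmt3LKO tumors, a pattern unlike that of Cd52. Plek shares 199 exon bases with Cnrip1, at 19 to 50 counts per tumor, and Coro1a shares 26 with Bola2, at 126 to 176 counts. For these stretches, reads of the partners cannot be separated.

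The promoters are shown as a description, for 5 start sites of Ptprc, Laptm5, Plek and Lcp1. Whether promoter sequence bears on the levels was not tested. RefSeq sequences (GRCm38.p6) were found for 7 of the 10 genes, in 10 windows that run from 250 bases before a start site to 50 after it. Selplg, Cd52 and Rac2 had no entry. The windows were searched on both strands for AGGAAG, a core of sites of the myeloid and lymphoid ETS factor PU.1, whose reverse complement is CTTCCT. The 250 bases before the start site follow, 5′ to 3′ on the strand of the gene, with each match in capitals.
Ptprc start site 1 (chr1:138175306-138175555, minus strand): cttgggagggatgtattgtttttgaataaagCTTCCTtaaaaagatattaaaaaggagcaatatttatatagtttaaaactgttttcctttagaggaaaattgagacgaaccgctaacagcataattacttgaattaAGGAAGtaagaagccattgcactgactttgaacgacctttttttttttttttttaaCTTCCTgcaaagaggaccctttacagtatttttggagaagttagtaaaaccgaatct
Laptm5 (chr4:130913066-130913315, plus strand): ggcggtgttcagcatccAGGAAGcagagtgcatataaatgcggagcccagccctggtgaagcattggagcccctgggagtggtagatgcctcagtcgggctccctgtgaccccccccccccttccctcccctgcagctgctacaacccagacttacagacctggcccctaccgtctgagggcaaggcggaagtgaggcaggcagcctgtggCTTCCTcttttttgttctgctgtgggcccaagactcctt
Plek (chr11:17008719-17008968, minus strand): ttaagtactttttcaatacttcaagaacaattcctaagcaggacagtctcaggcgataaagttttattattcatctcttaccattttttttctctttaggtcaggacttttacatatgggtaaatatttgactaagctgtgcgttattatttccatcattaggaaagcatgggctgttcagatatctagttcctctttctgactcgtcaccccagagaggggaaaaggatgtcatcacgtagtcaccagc
Lcp1 start site 1 (chr14:75130873-75131122, plus strand): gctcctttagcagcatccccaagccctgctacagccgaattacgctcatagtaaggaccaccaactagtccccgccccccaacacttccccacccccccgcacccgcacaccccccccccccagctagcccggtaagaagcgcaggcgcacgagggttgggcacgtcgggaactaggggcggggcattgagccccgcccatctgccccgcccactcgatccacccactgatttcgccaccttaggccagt
Lcp1 start site 2 (chr14:75136175-75136424, plus strand): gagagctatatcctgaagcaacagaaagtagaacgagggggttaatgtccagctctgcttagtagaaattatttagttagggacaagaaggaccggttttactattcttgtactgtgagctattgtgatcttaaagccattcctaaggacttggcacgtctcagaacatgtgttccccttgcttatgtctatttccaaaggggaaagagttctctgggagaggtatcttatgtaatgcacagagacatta
Ptprc (start site 1) held 3 matches, which began 219, 113 and 57 bases before the start site, and Laptm5 held 2, which began 233 and 39 bases before it. Plek and both windows of Lcp1 held none, and neither did the window of Fyb. Over the 10 windows, 5 windows of 4 genes held a match (Ptprc, Coro1a, Laptm5 and Cd53), while 35.4% of all 32851 RefSeq windows held it. The windows of Ptprc overlap, with start sites 179 bases apart, and the single match of the second is a match of the first, so 1 site is counted in both. A match is a string of letters and not a bound site. Base composition differed strongly: the window of Ptprc start site 1 was 33.7% G or C, that of Lcp1 start site 1 was 66.3%, with 19 CG dinucleotides, and the median of all windows was 52.7%. A high share was not particular to Lcp1: the window of Laptm5 had 62.3%, and that of Coro1a start site 1 had 61.3%, also with 19 CG dinucleotides. The 2 start sites of Lcp1 lie 5302 bases apart, and start site 2 has 44.3% G or C. Counts per gene do not tell which of them was used.

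To place each tumor on a single content scale, the log2 CPM of each gene was centred on its mean over the 6 tumors and averaged over the 10 genes. The scale was 0.54, 0.38 and 0.19 for Prmt3f/f 7, 66 and 71, and -0.63, -0.23 and -0.24 for Prmt3LKO 92, 93 and 94. Thus Prmt3LKO 92 was the poorest tumor in these transcripts and Prmt3f/f 7 the richest, over a range of 1.18 on the log2 scale. The group means differed by -0.74, so a Prmt3LKO tumor held on average 60.0% of the control level. That the groups were separate on this scale was fixed by the choice of the genes. The spread within groups was not small beside it: the scale spanned 0.36 among the Prmt3f/f tumors and 0.40 among the Prmt3LKO tumors. Without Lcp1, a step chosen after its values were seen, the scale was 0.65, 0.44 and 0.15 against -0.69, -0.30 and -0.25, and the difference widened to -0.82 (56.5% of the control level).

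**Figure D2:**
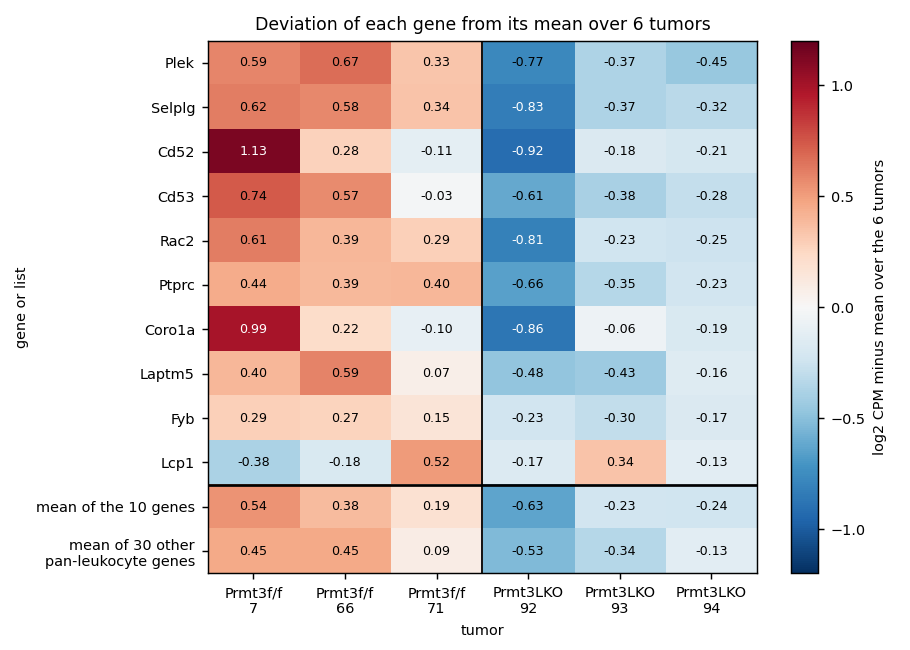
Deviation of log2 CPM from its mean over the 6 tumors for each gene (rows, ordered by log2 fold change) and tumor (columns), with the means of the 10 genes and of 30 other pan-leukocyte genes below the line. The Prmt3LKO 92 column is the darkest blue in most rows, and the Lcp1 row runs from -0.38 to 0.52 with a different order of tumors.

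Within the groups most genes shared the same lowest tumor. Prmt3LKO 92 was the lowest Prmt3LKO tumor in 9 of the 10 genes, with Fyb as the exception, and Prmt3f/f 71 was the lowest Prmt3f/f tumor in 8. These orders lie inside a genotype, but they are not free of the choice of the genes. A choice by the contrast can favour genes that are low in a single Prmt3LKO tumor. Without Prmt3LKO 92 the median log2 fold change of the 10 genes was -0.69. The orders are therefore a description, and their share over all genes is not given here. The evenness of each gene was measured as the root mean square of its distance from the content scale over the 6 tumors, in log2 units. Rac2 followed the scale most closely (0.089), then Ptprc (0.11). Cd52 (0.30) and Coro1a (0.26) departed further, both through a higher level in Prmt3f/f 7. Lcp1 was farthest (0.55), with a deviation of -0.92 in Prmt3f/f 7 and of 0.58 in Prmt3LKO 93.

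Pairs of genes were compared in the same way. Plek and Selplg were the closest of the 45 pairs, with a root mean square distance of 0.071 between their profiles, followed by Coro1a and Cd52 at 0.081 and Selplg and Rac2 at 0.10. Cd52 and Lcp1 were the farthest at 0.79. Coro1a and Cd52 thus formed a pair of their own, high in Prmt3f/f 7 and lower in Prmt3f/f 66 and 71. The ratio of Cd52 to Ptprc in FPKM, the deposited level per gene length, was 13.6, 7.75 and 5.89 in Prmt3f/f tumors and 6.97, 9.42 and 8.51 in Prmt3LKO tumors. That of Rac2 to Ptprc was far steadier, at 6.23, 5.53 and 5.12 against 4.94, 5.97 and 5.45. The ratio of Lcp1 to Ptprc was 2.77, 3.29 and 5.34 against 6.91, 7.92 and 5.27, so it was higher in Prmt3LKO tumors except that Prmt3f/f 71 was just above Prmt3LKO 94.

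Levels were compared between genes only per length, in FPKM. In Prmt3f/f tumors the order was Cd52 (13.7 ± 6.62), Cd53 (13.2 ± 3.48), Laptm5 (9.36 ± 1.52), Rac2 (8.45 ± 1.14), Lcp1 (5.68 ± 1.999), Coro1a (4.62 ± 1.98), Selplg (2.89 ± 0.294), Plek (2.78 ± 0.301), Fyb (2.27 ± 0.121) and Ptprc (1.499 ± 0.0656), each ± SD with n = 3. The neighbours Cd52 and Cd53, Laptm5 and Rac2, Lcp1 and Coro1a, Coro1a and Selplg, and Selplg and Plek differed by less than the larger of their SDs. In Prmt3LKO tumors Lcp1 (5.61 ± 1.42) stood level with Laptm5 (5.61 ± 0.734) and differed from Rac2 (4.64 ± 1.15) by less than its SD, and Ptprc (0.842 ± 0.148) was again last. The order depends on the length used. The deposited FPKM divides the counts of Ptprc by 26.9 kb and those of Lcp1 by 13.2 kb, whereas their longest coding transcripts in GENCODE M21 have 5.07 and 3.84 kb. With means over all 6 tumors, in which Lcp1 is level between the groups and the others are lower in one, Lcp1 was rank 5 by FPKM and rank 2 per kilobase of that transcript, and Ptprc was rank 10 and rank 8, with Plek last.

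A further 30 genes of most blood cells, none of them among the 10, were examined as a list with the earlier results of these data known. All 30 were tested, and 29 had a lower mean in Prmt3LKO tumors. Their median log2 fold change was -0.71, where that of all genes was 0.00037. The edgeR test called 0 of them at the adjusted threshold (smallest adjusted p 0.592), and DESeq2 also called 0. At an unadjusted p under 0.05, 20 of the 30 were lower and 0 higher, where 4.37% of all genes were lower and 2.2% higher. Without overlap, 21 (70.0%) were lower and 0 higher, where 6.6% of all genes were lower and 5.56% higher. Averaged as the 10 genes were, these 30 gave a scale of 0.45, 0.45 and 0.09 in Prmt3f/f tumors and -0.53, -0.34 and -0.13 in Prmt3LKO tumors, a difference of -0.67 (63.0% of the control level). Prmt3LKO 92 was again the lowest tumor, while Prmt3f/f 66 equalled Prmt3f/f 7.

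Of its most abundant members, Itgb2, the beta 2 chain of leukocyte integrins, was at 29.4, 57.0 and 39.2 CPM in Prmt3f/f tumors and at 18.2, 22.8 and 24.0 CPM in Prmt3LKO tumors (log2 fold change -0.95 ± 0.25). Cyth4, a nucleotide exchange factor for ARF GTPases, was at 49.3, 20.4 and 15.1 CPM against 9.32, 11.9 and 14.5 CPM (-1.24 ± 0.43), with the high value in Prmt3f/f 7. Arhgdib, the inhibitor that keeps small GTPases of blood cells in the cytosol, had a log2 fold change of -0.89 ± 0.27. For Nckap1l, a subunit of the WAVE complex that acts downstream of Rac, it was -0.56 ± 0.16. Ptpn6, the phosphatase SHP-1, differed little, at 30.6, 28.7 and 32.0 CPM against 27.5, 24.9 and 25.6 CPM (-0.23 ± 0.13). The single gene with a higher mean was Ikzf1, the lymphoid factor Ikaros, named after its value was seen, at 3.19, 2.71 and 2.81 CPM against 1.83, 4.69 and 5.88 CPM (0.51 ± 0.41).

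**Figure D3:**
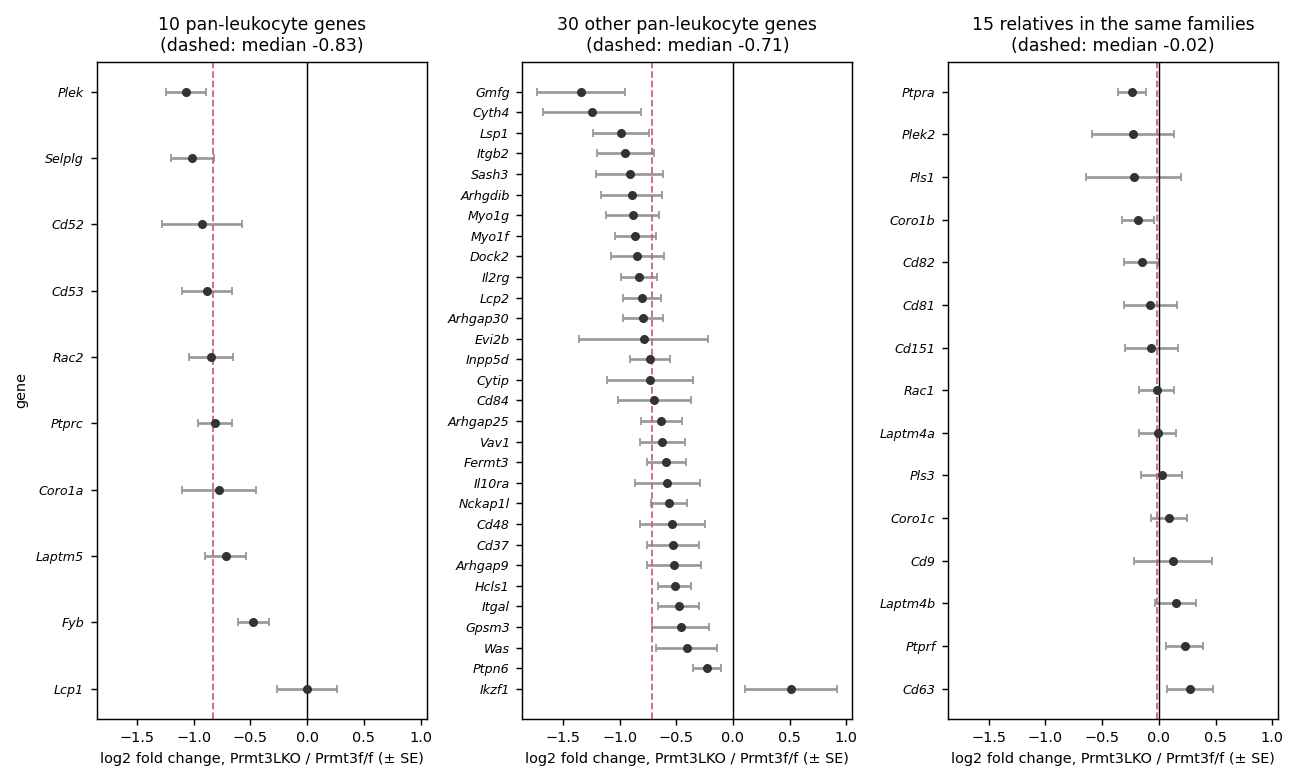
Log2 fold change of Prmt3LKO over Prmt3f/f tumors with its SE (n = 3 per group) for the 10 pan-leukocyte genes, 30 other pan-leukocyte genes and 15 relatives of the 10 genes in the same protein families. The dashed lines mark the medians of -0.83, -0.71 and -0.02.

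The 10 genes have relatives in the same protein families that many other cells express. Of 16 such genes 15 were tested, and Rac3 was too low. Their median log2 fold change was -0.02 and their range -0.24 to 0.27, with 0 of 15 at an unadjusted p under 0.05 by edgeR and 0 at the adjusted threshold. Groups did not overlap for 1 lower gene of the 15, Ptpra (6.67%), and for 1 higher gene, Ptprf, near the shares of all genes (6.6% lower and 5.56% higher). Both encode receptor tyrosine phosphatases. Rac1, the ubiquitous relative of Rac2, was at 170, 145 and 151 CPM in Prmt3f/f tumors and at 156, 168 and 134 CPM in Prmt3LKO tumors (log2 fold change -0.02 ± 0.16). The ratio of Rac2 to Rac1 in FPKM was therefore 0.357, 0.360 and 0.320 in Prmt3f/f tumors and 0.143, 0.199 and 0.248 in Prmt3LKO tumors.

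Among coronins, Coro1b (-0.19 ± 0.14) and Coro1c (0.09 ± 0.16) had small log2 fold changes, as did the plastins Pls1 (-0.22 ± 0.42) and Pls3 (0.02 ± 0.18). The ratio of Lcp1 to Pls3 in FPKM was 0.386, 0.599 and 0.994 against 0.472, 0.895 and 0.544, which overlapped widely. Among the tetraspanins related to Cd53, Cd81 (-0.07 ± 0.23), Cd9 (0.13 ± 0.34), Cd63 (0.27 ± 0.21), Cd151 (-0.07 ± 0.23) and Cd82 (-0.15 ± 0.15) all had overlapping groups. Laptm4a (-0.01 ± 0.16), Laptm4b (0.15 ± 0.18) and Plek2 (-0.23 ± 0.36) did too. Each of these log2 fold changes was within 2 SE of 0.

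Partners of the 10 genes were taken from lists by function. For CD45, 7 genes of its Src kinases and their brake had a median log2 fold change of -0.30. Of these, 3 were lower at an unadjusted p under 0.05 by edgeR, where 4.37% of all genes were. Lck, the T cell kinase, named after its value was seen, was at 5.77, 5.69 and 5.66 CPM against 1.31, 3.43 and 3.32 CPM (-1.08 ± 0.35). Csk, the inhibitory kinase found in all tissues, was at 50.5, 53.4 and 64.3 CPM against 62.0, 54.0 and 53.5 CPM (0.01 ± 0.15). Lyn, of B cells and myeloid cells, had a log2 fold change of -0.25 ± 0.14 with overlapping groups. For PSGL-1, 10 of 11 selectins and glycan enzymes were tested, with a median of -0.47. At an unadjusted p under 0.05, 2 were lower, beside the same share of 4.37% of all genes. The most abundant enzymes were near 0: St3gal4 at -0.02 ± 0.17 and B4galt1 at -0.02 ± 0.22.

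Of the 5 subunits of the phagocyte NADPH oxidase, which Rac2 activates, 3 were lower at an unadjusted p under 0.05. Of all genes, 4.37% were lower at it, and this share also stands beside the count of ADAP partners below. The subunits had a median of -0.46 and diverged. Cybb, the membrane subunit that carries electrons, was at 81.7, 83.2 and 111 CPM in Prmt3f/f tumors and at 116, 81.8 and 114 CPM in Prmt3LKO tumors (0.18 ± 0.20). Its partner Cyba was at 19.4, 22.2 and 14.3 CPM against 12.7, 13.3 and 14.7 CPM (-0.46 ± 0.19), and the cytosolic organizer Ncf1, named after its value was seen, was lower without overlap (-0.90 ± 0.23). For ADAP, the product of Fyb, 2 of 6 partners were lower at an unadjusted p under 0.05 and the median was -0.36. Tln1 (talin, the activator of integrins, -0.19 ± 0.16) and Vasp (an actin elongation factor, 0.13 ± 0.21) had overlapping groups. None of these partner genes passed the adjusted threshold in the edgeR fit, where 0% of all genes did.

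Likeness to the content scale was ranked over 12768 genes with a mean of at least 1 CPM that are not among the 10. The nearest was Srgn, the proteoglycan of leukocyte granules, with a root mean square distance of 0.077, at 28.1, 23.3 and 18.4 CPM in Prmt3f/f tumors and at 11.1, 14.8 and 14.3 CPM in Prmt3LKO tumors. Kitl (stem cell factor, 0.080), Akna (0.080), Clec7a (the fungal receptor dectin-1, 0.087), Tbc1d9 (0.099), Ciita (the activator of MHC class II genes, 0.11), Hmha1 (0.11) and Hivep3 (0.11) followed. Itself a member of the scale, Rac2 lay at 0.089. The search used the same tumors as the scale, so these distances are a description. The genes nearest to the Lcp1 profile, chosen after its values were seen, were Gpd2 (mitochondrial glycerol phosphate dehydrogenase, 0.10), Acacb (acetyl-CoA carboxylase of mitochondria, 0.11), Setd1a (a histone methyltransferase, 0.12), Sel1l3 (0.12), Gemin4 (0.13), Cdan1 (0.13), Gm1840 (0.13) and Camsap1 (0.13).

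Markers of single blood lineages were set beside the scale, since the 10 genes sum over all of them. T cell markers had a median log2 fold change of -1.18. Of these, 11 of 11 had lower means, 6 were at an unadjusted p under 0.05, where 4.37% of all genes were lower at it, and 9 were lower without overlap, where 6.6% of all genes were. The same shares stand beside the counts of the other lists of cell types. Their summed level was 38.1, 29.95 and 30.8 CPM in Prmt3f/f tumors and 6.86, 20.4 and 15.3 CPM in Prmt3LKO tumors, and the tumor lowest in T cell markers, Prmt3LKO 92, was also lowest on the content scale. Cd8a, of cytotoxic T cells, was at 5.45, 5.46 and 6.89 CPM against 1.26, 2.75 and 2.41 CPM (-1.46 ± 0.32), and Cd4, of helper T cells and some myeloid cells, at 5.82, 3.87 and 3.97 CPM against 0.743, 3.79 and 0.603 CPM (-1.39 ± 0.66). By staining of tumor tissue, the paper reports the opposite direction, with more CD8-positive T cells in tumors of Prmt3LKO mice. Stained cells and RNA of whole tissue are different measures, and the reason for the difference was not tested. Neutrophil markers had a median of -1.49, with 4 of 5 at an unadjusted p under 0.05. Csf3r, the receptor of granulocyte colony-stimulating factor, was at 12.3, 7.51 and 8.79 CPM against 3.83, 5.41 and 4.37 CPM (-1.07 ± 0.25), and S100a9, a subunit of calprotectin, had a log2 fold change of -1.66 ± 0.41. Monocyte markers had a median of -1.17, with Ccr2, the receptor that brings monocytes into tissue, at 14.4, 8.02 and 6.12 CPM against 3.49, 3.07 and 5.33 CPM (-1.26 ± 0.37) and Plac8 at -0.40 ± 0.34.

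Lists of macrophages and Kupffer cells had medians nearer to 0. The macrophage list had a median of -0.44, with 4 of 9 at an unadjusted p under 0.05, and Csf1r, the receptor on which macrophages depend, was at 109, 143 and 124 CPM against 101, 73.2 and 97.3 CPM (-0.47 ± 0.18). Lyz2, lysozyme, overlapped between groups, with 160 CPM in Prmt3f/f 71 and 163 in Prmt3LKO 94 (-1.56 ± 0.46). The most abundant Kupffer cell genes were near 0, with Cd5l at 186, 135 and 172 CPM against 167, 123 and 173 CPM (-0.09 ± 0.20) and Clec4f at -0.05 ± 0.28. Marco, a scavenger receptor named after its value was seen, was at 12.0, 37.2 and 18.3 CPM against 4.11, 4.06 and 5.73 CPM (-2.28 ± 0.41). Timd4, also named after its value was seen, was lower without overlap (-1.29 ± 0.29). The Kupffer cell list, with a median of -0.32 and 2 of 5 at an unadjusted p under 0.05, was thus mixed. Dendritic cell markers had a median of -0.92, with Itgax (CD11c) at -1.02 ± 0.28 and Zbtb46 at -0.28 ± 0.27.

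In the B cell list the median was -0.33 with 0 of 7 at an unadjusted p under 0.05, and Cd79b (0.05 ± 0.31) and Cd22 (-0.33 ± 0.26) overlapped. Plasma cell markers had a median of -0.96, led by Jchain, the chain that joins IgA and IgM, at 64.4, 39.7 and 52.6 CPM against 11.7, 37.4 and 7.79 CPM (-1.46 ± 0.54), while Derl3 was at -0.17 ± 0.63. For NK cells the median was -0.65, with Nkg7 at -0.95 ± 0.41 and Klrk1 at -0.06 ± 0.39. Markers of mast cells and basophils, Mcpt8 and Cma1 among them, did not pass the filter, with at most 6 counts in any tumor. Platelet markers, which matter for Plek, had a median of -0.60 with 0 of 3 at an unadjusted p under 0.05, and Itga2b was at -0.33 ± 0.27 and Pf4 at -0.60 ± 0.44.

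**Figure D4:**
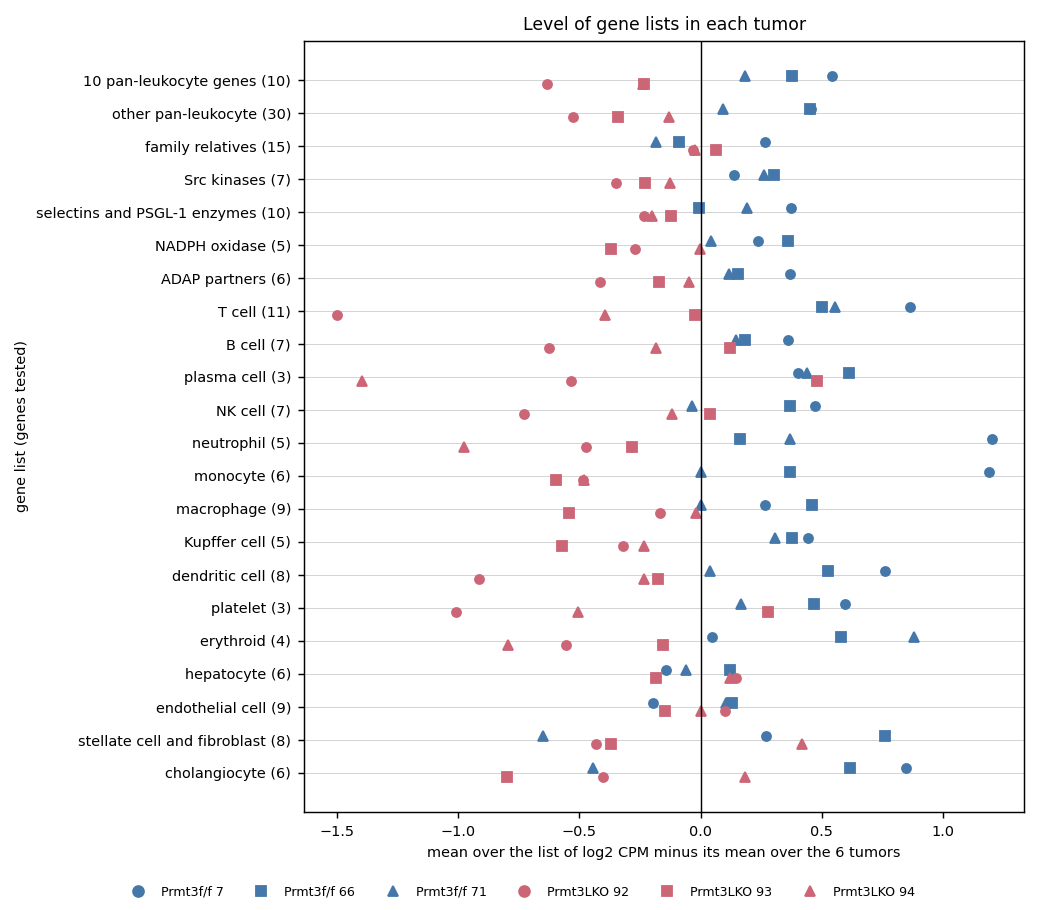
Level of each gene list in the 6 tumors, as the mean of log2 CPM after each gene was centred on its mean over the tumors, with the number of genes tested in parentheses. The pan-leukocyte lists separate the genotypes, which for the 10 genes was fixed by their choice. So do other lists, among them those of T cells, neutrophils, monocytes, dendritic cells and erythroid cells. T cell markers are lowest in Prmt3LKO 92 at -1.50, and the hepatocyte and endothelial lists overlap.

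Outside the leukocyte lists, the hepatocyte and endothelial medians lay nearest to 0. Hepatocyte markers had a median of -0.02, with Alb (-0.09 ± 0.38) and Apoa1 (-0.18 ± 0.28) overlapping. Endothelial markers had a median of -0.11, with Stab2 (-0.10 ± 0.19) and Eng (-0.11 ± 0.18). Of these 9 genes, 6 were below 0 and 3 above, with a highest value of 0.51. Without overlap, 1 was higher and 0 were lower, where 5.56% of all genes were higher and 6.6% lower. Stellate cell and fibroblast markers summed to 608, 913 and 358 CPM in Prmt3f/f tumors and 391, 409 and 657 CPM in Prmt3LKO tumors, an order unlike that of the content scale. Their median was -0.33, with 8 of 8 below 0 and 0 without overlap or at an unadjusted p under 0.05 by edgeR, and Col3a1 (-0.48 ± 0.39) and Dcn (-0.27 ± 0.26) overlapped. Cholangiocyte markers had a median of -0.64 with Spp1 (-2.77 ± 0.84) and Sox9 (-0.73 ± 0.33). Of these 6 genes, 4 were below 0 and 2 above, 1 was lower at an unadjusted p under 0.05, and 0 were without overlap. They summed to 4103, 1016 and 328 CPM in Prmt3f/f tumors and 356, 282 and 207 CPM in Prmt3LKO tumors, with the high value in Prmt3f/f 7. Erythroid genes had a median of -1.31, below that of the 10 genes, and 3 of the 4 tested were lower without overlap. Hbb-bs, adult beta globin, was at 40.2, 47.4 and 46.0 CPM in Prmt3f/f tumors and at 16.9, 27.3 and 11.3 CPM in Prmt3LKO tumors (-1.27 ± 0.30). The alpha globin genes Hba-a1 (-1.35 ± 0.38) and Hba-a2 (-1.48 ± 0.38), named after their values were seen, are near-identical copies that can share reads. The exception, Alas2, the heme enzyme of erythroid cells, overlapped at 13.3, 27.5 and 54.6 CPM against 43.2, 18.2 and 55.9 CPM. The 4 erythroid genes tested summed to 74.4 to 131 CPM in Prmt3f/f tumors and 61.9 to 73.0 CPM in Prmt3LKO tumors. The part of residual blood in the level of the 10 genes was not tested.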

How the data were processed

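RNA-seq of 6 liver tumors was taken from 1 deposited table of 34745 genes, 14468 of them without a count in the 6 tumors. Paired-end reads were aligned by the authors with Hisat2 (GRCm38), who deposited a count, which is not normalized, and an FPKM per gene and tumor, which divides the count by a gene length and the total count. The submitters' processing notes name bcl2fastq 2.19, HISAT2 2.0.4 and StringTie 1.3.0. The counting tool, the use of strand and the annotation release are not given in the sources used here. Groups came from the genotype labels, and 0 columns of values were left unused. Replicates are separate tumors, so p-values measure the spread between these tumors.

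Counts were filtered with filterByExpr (minimum count 10, minimum total 15), scaled by TMM and fitted with edgeR 4.0.16 (R 4.3.3, quasi-likelihood test), with Benjamini-Hochberg adjustment over 13892 genes. The paper gives limits for q and fold change but names no test across genes. At those limits it reports far more genes in both directions than edgeR or DESeq2 called here, and the reason was not tested. The SE is the log2 fold change divided by the square root of F, and log2 CPM used a prior count of 2. For a symbol with more than 1 identifier (59 symbols), the one with the largest total count was used. A count of 0 allows up to 0.107 to 0.163 CPM (3 counts, counting error only). The members and gene lists were chosen with earlier results of these data known. Named genes were the 10 members, Prmt3, the most abundant 5 of the other pan-leukocyte list, relatives with a mean of at least 1 CPM, the most abundant 2 of every other list, and the 8 genes nearest to the content scale. Alternatives were DESeq2 1.42.0, library size without TMM, no filter, a mean of at least 1 CPM, log2(FPKM + 1) and each tumor left out. Results of some single genes are not reported here.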

Additional observations from a re-analysis of the deposited data

How the results depend on the processing

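The median log2 fold change of the 10 genes stayed between -0.95 and -0.67 over 12 alternatives, and its range with each tumor left out was -0.95 to -0.69. The SD over the 10 genes was 0.27 to 0.45 with each tumor left out, highest without Prmt3f/f 71, and 0.17 for the 9 genes without Lcp1, an alternative chosen after seeing the data. On log2(FPKM + 1), which understates changes of low genes, the median of the 30 other pan-leukocyte genes was -0.40, and the values of Ptprc (-0.44), Plek (-0.71), Selplg (-0.69) and Fyb (-0.33) were also smaller. DESeq2 called 44 genes lower and 10 higher and gave Prmt3 an adjusted p of 0.0035 (log2 fold change -1.55), and 2 genes were lower without a filter. With each tumor left out, edgeR called 0 genes, and the count of the 30 genes at an unadjusted p under 0.05 was 15 to 22. Groups that do not overlap cannot come to overlap when a tumor is removed, so at least 8 of the 10 genes was fixed in advance. With each tumor left out (added after seeing the data), the count was 8 to 9. Of all genes, 9.41% to 13.3% were then lower without overlap, against 6.6% with none left out. Coro1a without Prmt3f/f 7 had a log2 fold change of -0.41 and Cd52 of -0.50, and Lcp1 without Prmt3f/f 71 had 0.31. No paired analysis was possible because the replicate numbers (7, 66, 71 and 92, 93, 94) are not shared between the groups. Precision rests on 3 tumors per group.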
